A study of Homo sapiens with 9 samples.

Results

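Chromatin accessibility was followed at GATA1, GATA2 and ZFPM1, the genes of the erythroid GATA factors and of their cofactor FOG1, in 9 ATAC-seq libraries of K562 cells. ATAC-seq marks open DNA by the insertion of adapters by the Tn5 transposase, and K562 is a leukaemia line (chronic myeloid, blast crisis) with erythroid and megakaryocytic features. Of the libraries, 3 came from wild type parental cells with no mutation in STAG2. A further 3 came from a CRISPR-Cas9 edited line heterozygous for STAG2 R614* (+/-), and 3 from an edited line homozygous for it (-/-). The STAG2 protein belongs to cohesin, which forms chromatin loops, and R614* changes an arginine codon to a stop. Each genotype is 1 line. The growth notes name the homozygous cells alone as adherent, so genotype, line and growth form cannot be told apart. All libraries were made from 50000 cells. The labels do not say that the 3 replicates were separate cultures, so their spread may be technical.

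The members were all peaks centred inside 1 of the 3 genes or up to 100 kb away. Of 2164004 peaks in the full lists, 489 lay in these windows. The 50000 peaks of each library that rank first by −log10 p are called the strongest peaks here, and 160 of these 450000 lay there. Merged wherever they overlapped, the strongest peaks of all libraries gave 105878 regions, of which 34 belong to the members. The GATA1 window held 7 regions, the GATA2 window 10 and the ZFPM1 window 17. A region is named by the distance of its midpoint from the 5′ end of its gene, positive downstream. Its percentile is the share of the library's 50000 strongest peaks that rank below its best peak, with 0 where no strong peak overlaps it. Read counts were not used here and the depth is unknown, so a percentile is a rank within a library rather than an amount. A full-list percentile is the share of the library's whole list instead. Lists differ in length, so the same rank gives a higher full-list percentile in a longer list.

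GATA1 is the zinc finger factor that drives erythroid and megakaryocytic differentiation, and GATA2 acts earlier, in stem and progenitor cells. As erythroid cells mature, GATA1 replaces GATA2 at shared sites, among them sites at the GATA2 gene itself, and GATA2 transcription is shut off. FOG1, the product of ZFPM1, binds the amino-terminal finger of GATA1 and brings in the NuRD chromatin remodelling complex. Enhancers of these genes carry AGATAA strings, in some cases at a fixed spacing from an E-box, where GATA factors bind together with TAL1.

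The lists were not all independent. The largest overlap of identical coordinates, 46.0% of the shorter list, joined wild type replicate 3 to heterozygous replicate 1, with 15 of 50 peaks in the windows. Wild type replicates 1 and 2 shared 23.2%, with 6 of 41 in the windows, and heterozygous replicates 2 and 3 shared 1.17%, with 1 of 38. The other 33 pairs shared 0.223% to 0.351%. Lists held 181579 to 319986 peaks, and the −log10 p at rank 50000 ranged from 4.95 to 6.73. A gene is counted here and below as having a start site peak where at least 1 library had a strong one. Of 5 erythroid marker genes, 3 had a strong peak at a start site (TAL1 and HBE1 in 9 libraries, EPOR in 7), while GATA1 and KLF1 had none. Among markers of other cell types a start site peak was found for 1 of 3 T cell genes (CD3D), 0 of 3 B cell genes, 2 of 3 fibroblast genes (COL1A1 and COL1A2), 1 of 3 epithelial genes (EPCAM), 0 of 1 hepatocyte gene and 1 of 3 other myeloid genes (SPI1). Of these, EPCAM was higher and COL1A2 lower in all 3 homozygous libraries than in all 3 wild type libraries. Over all regions at protein-coding start sites 13.1% were higher and 8.03% lower. CD3D was lower in all 3 heterozygous than in all 3 wild type libraries (background 4.02%). The part of these differences in the results was not tested.

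Sequences from regions described below are printed from the GRCh37 reference, with capitals on the strings searched. The first is a stretch around the AGATAA at the position of the upstream enhancer of GATA1. The second is part of the region just past the 3′ end of the gene, where the genotypes were furthest apart in rank order.
GATA1 upstream enhancer, chrX:48641354-48641479, plus strand, AGATAA on the minus strand in capitals: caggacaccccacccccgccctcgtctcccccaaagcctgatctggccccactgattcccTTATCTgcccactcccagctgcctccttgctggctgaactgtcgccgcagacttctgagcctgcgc
GATA1 downstream region, chrX:48653484-48653779, plus strand, AGATAA on the minus strand and the AP-1 string TGANTCA in capitals: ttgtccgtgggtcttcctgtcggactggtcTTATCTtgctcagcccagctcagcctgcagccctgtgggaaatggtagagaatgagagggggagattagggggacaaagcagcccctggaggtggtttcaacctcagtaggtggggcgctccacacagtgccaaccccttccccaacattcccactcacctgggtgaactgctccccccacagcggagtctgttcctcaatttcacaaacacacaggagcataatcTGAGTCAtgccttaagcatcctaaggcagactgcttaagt
GATA2 intronic enhancer, chr3:128202124-128202200, minus strand as GATA2 is read, composite of CTG, 8 bases of any kind and AGATAA in capitals: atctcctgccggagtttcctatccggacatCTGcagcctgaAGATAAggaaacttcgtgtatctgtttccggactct
GATA2 upstream, chr3:128214413-128214489, minus strand, the same composite in capitals: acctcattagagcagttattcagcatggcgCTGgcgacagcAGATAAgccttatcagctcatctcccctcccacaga
ZFPM1 promoter, chr16:88519488-88519687, plus strand, the 200 bases before the annotated start, with no AGATAA, CCACACCC or TGTGGT: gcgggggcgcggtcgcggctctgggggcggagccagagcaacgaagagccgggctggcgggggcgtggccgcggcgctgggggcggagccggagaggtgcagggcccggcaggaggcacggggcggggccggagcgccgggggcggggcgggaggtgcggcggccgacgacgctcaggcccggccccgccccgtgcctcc
ZFPM1 intron at +38.4 kb, chr16:88558263-88558348, plus strand, AGATAA on the minus strand in capitals: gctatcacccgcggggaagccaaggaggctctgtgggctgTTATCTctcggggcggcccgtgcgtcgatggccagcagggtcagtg
ZFPM1 intron at +44.8 kb, chr16:88564197-88564282, plus strand, AGATAA on the minus strand in capitals: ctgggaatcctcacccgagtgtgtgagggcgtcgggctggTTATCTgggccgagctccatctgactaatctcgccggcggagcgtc

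**Figure D1:**
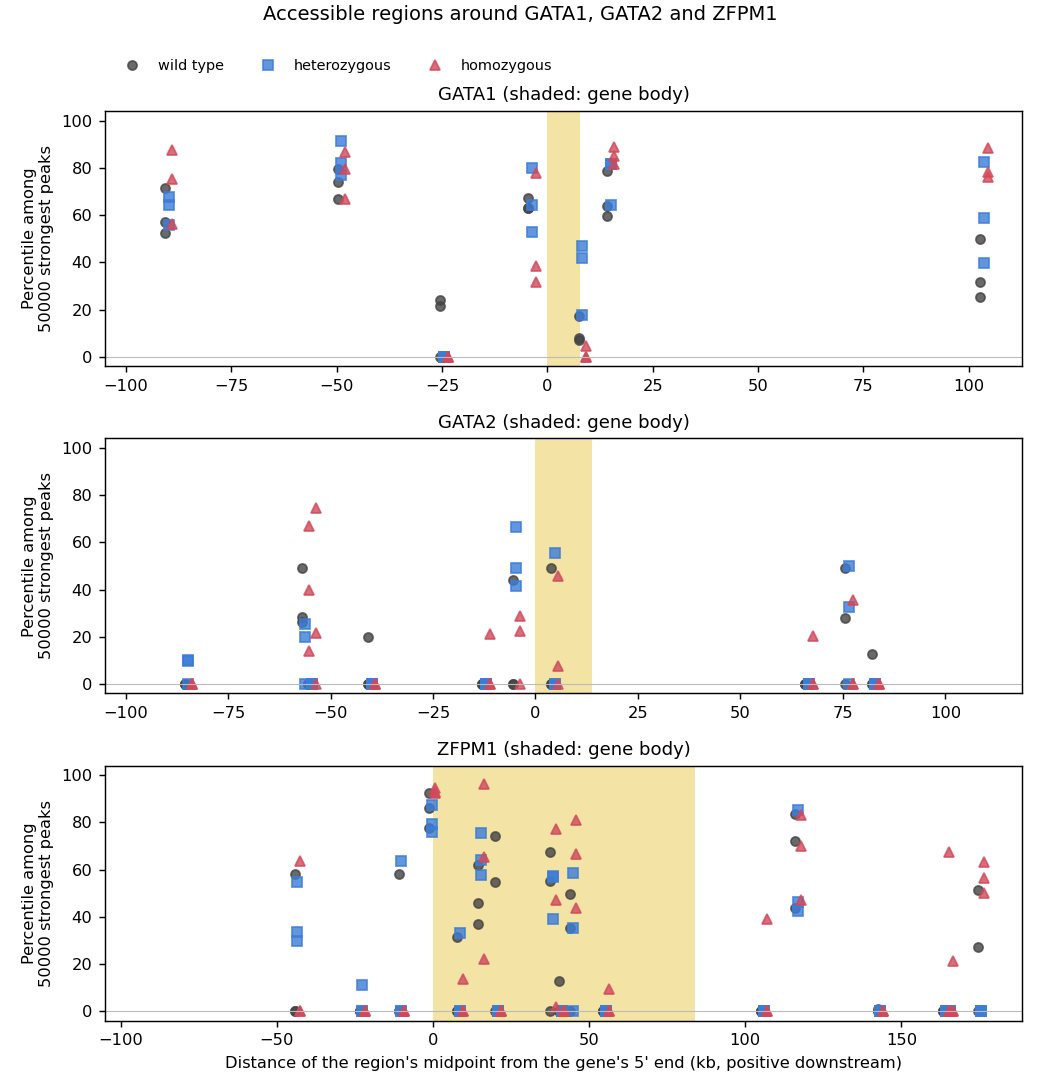
Percentile among the 50000 strongest peaks (vertical axis) of every region around GATA1, GATA2 and ZFPM1, against its distance from the gene's 5′ end in kb (horizontal axis). Each symbol is 1 library, black circles wild type, blue squares heterozygous and red triangles homozygous, with a point at 0 where the library has no strong peak. The start of GATA1 has no strong peak in any library, while the ZFPM1 start lies between 75.9 and 94.7 in all 9.

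At the annotated start of GATA1 (ENSG00000102145, chromosome X, 48644948 to 48652718, plus strand) no library had a strong peak. The full lists held a weaker peak within 500 bp of the start in 8 of 9 libraries, all but heterozygous replicate 2. Its percentile in the full list was 52.9, 70.7 and 60.6 in wild type replicates 1 to 3. It was 69.5 and 51.2 in heterozygous replicates 1 and 3, and 29.0, 58.4 and 81.3 in homozygous replicates 1 to 3. The homozygous values spanned both the lowest and the highest of the libraries with a peak. The authors' fold enrichment there was 3.08 to 4.36 over their local background. The first intron, up to 3500 bp after the start, had a weak peak in wild type replicate 3 and homozygous replicate 2 and in no other library.

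Upstream of GATA1 lay a region present in all libraries, with AGATAA in its central 500 bp. The GATA1 −3.6 kb region (chromosome X, 48640885 to 48641781, intergenic) is at the position of the upstream haematopoietic enhancer of the gene. Its percentiles were 62.9, 67.2 and 63.0 in wild type, 52.7, 64.4 and 80.1 in heterozygous and 31.6, 38.3 and 77.9 in homozygous replicates 1 to 3. Homozygous replicates 1 and 2 were below all other libraries, but replicate 3 was above all wild type libraries, so the groups overlapped. Homozygous minus wild type was −15.1 percentile points, from −29.4 without homozygous replicate 3 to −6.24 without homozygous replicate 1, and 4.05 among the 20000 strongest peaks. The difference did not pass the threshold, and the SD (n = 3 each) was 25.0 for homozygous, 13.7 for heterozygous and 2.43 for wild type libraries (exact permutation p = 0.436, adjusted p = 0.982 over all 105878 regions). Peaks of this region have their summits close to the AGATAA printed above. In 9 of 9 libraries a summit lay within 116 bp of the string, with a median of 45 bp.

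Just past the 3′ end of GATA1 lay the +8.3 kb region (chromosome X, 48652519 to 48654020, intergenic at its midpoint). It separated the 3 genotypes among the strongest peaks but not by full-list percentile. Its percentiles were 17.3, 7.20 and 7.91 in wild type and 17.7, 46.7 and 42.0 in heterozygous replicates 1 to 3. They were 0, 0 and 4.36 in homozygous replicates 1 to 3. All heterozygous libraries were therefore above all wild type libraries, and all homozygous libraries below them. The margin between heterozygous replicate 1 and wild type replicate 1 was small, 17.7 against 17.3. The exact permutation p was 0.00357, the smallest that 280 assignments of the libraries allow. It shared that value with 797 other regions, and the adjusted p was 0.374, so the difference did not pass the threshold after adjustment. With lists that share intervals counted as 1 source, homozygous minus the others was −27.0 points (exact permutation p = 0.0857). Full-list percentiles were 81.5, 84.7 and 84.0 in wild type, 83.8, 86.4 and 85.5 in heterozygous and 53.9, 66.5 and 85.0 in homozygous libraries. By this measure homozygous replicate 3 was above all wild type libraries and heterozygous replicate 1 below wild type replicates 2 and 3. The order was thus lost (exact permutation p = 0.154, adjusted p = 0.400). These percentiles also depend on list length, and the list of homozygous replicate 3 is the longest. By rank homozygous replicate 3 (47820) was behind wild type replicates 1 to 3 (41328, 46403 and 46044), and heterozygous replicate 1 (41132) ahead of them. Both homozygous libraries at 0 had a weaker peak at the same place, at ranks 83693 and 66354 of their full lists. Peaks of the full lists spanned the AGATAA printed above in 7 libraries, and in neither heterozygous replicate 2 nor 3. Where they did, the nearest first or last summit lay 30 to 272 bp away, with a median of 232 bp.

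The peaks behind the +8.3 kb region were not drawn alike in all libraries. The lists give a window of 500 bp around each summit and join windows that overlap, with averaged values. Wild type replicates 1 and 2 and homozygous replicates 1 and 3 each had 1 joined peak of 4 summits, 1433 to 1518 bp wide. The best peak joined 2 summits in wild type replicate 3 and heterozygous replicates 1 and 2, and 3 in heterozygous replicate 3, with widths of 733 to 783 bp. Homozygous replicate 2 had single windows of 500 bp. Among the libraries with 4 joined summits the percentiles were 17.3 and 7.20 in wild type and 0 and 4.36 in homozygous cells. Full-list percentiles of the same libraries were 81.5 and 84.7 in wild type and 53.9 and 85.0 in homozygous cells. The unranked −log10 p of homozygous replicate 3 was 6.98, above the 6.51 to 6.77 of the wild type libraries. That order is opposite to the order of the percentiles among the strongest peaks, and lists differ in the −log10 p found at a given rank. The part of joining in the differences between genotypes was not tested.

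Beyond this region lay the start of HDAC6, the neighbouring gene of a deacetylase, and with it the best ranked region downstream of GATA1. The +15.0 kb region (chromosome X, 48658803 to 48661143, over an HDAC6 start site) had percentiles of 59.7, 78.8 and 63.9 in wild type and 64.1, 81.6 and 81.7 in heterozygous libraries. In homozygous libraries they were 81.7, 88.8 and 85.0, above all others, though the closest pair was 81.704 in homozygous replicate 1 and 81.698 in heterozygous replicate 3. The exact permutation p was 0.0393 and the adjusted p 0.396. The best peak joined 7 or 8 summits in wild type replicates 1 and 3, heterozygous replicate 1 and homozygous replicate 3. It joined 3 to 6 in the other libraries, and the part of joining in these ranks was not tested. At +103.7 kb, 341 bp from a start of PQBP1 (chromosome X, 48747821 to 48749444), percentiles were 31.8, 49.8 and 25.1 in wild type, 39.7, 58.6 and 82.3 in heterozygous and 78.0, 76.0 and 88.2 in homozygous libraries. The homozygous libraries were above all wild type libraries and overlapped the heterozygous ones (exact permutation p = 0.0464, adjusted p = 0.437).

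The other regions of the GATA1 window showed no such order. The −48.9 kb region, intergenic, had the highest mean percentile of the window and ranged from 66.6 to 91.3 over all 9 libraries. The −89.9 kb region, at a start of the histone methyltransferase gene SUV39H1, ranged from 52.3 to 87.7. The −24.5 kb region, 12 bp from a start of GLOD5, had the lowest mean of the window. It was found among the strongest peaks of wild type replicates 1 and 2 alone, at 23.9 and 21.3, and these lists share intervals. Just outside the window, the nearest regions at −109.9 kb and +110.1 kb were in all 9 libraries, from 50.1 to 98.7 and from 20.4 to 72.6.

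**Figure D2:**
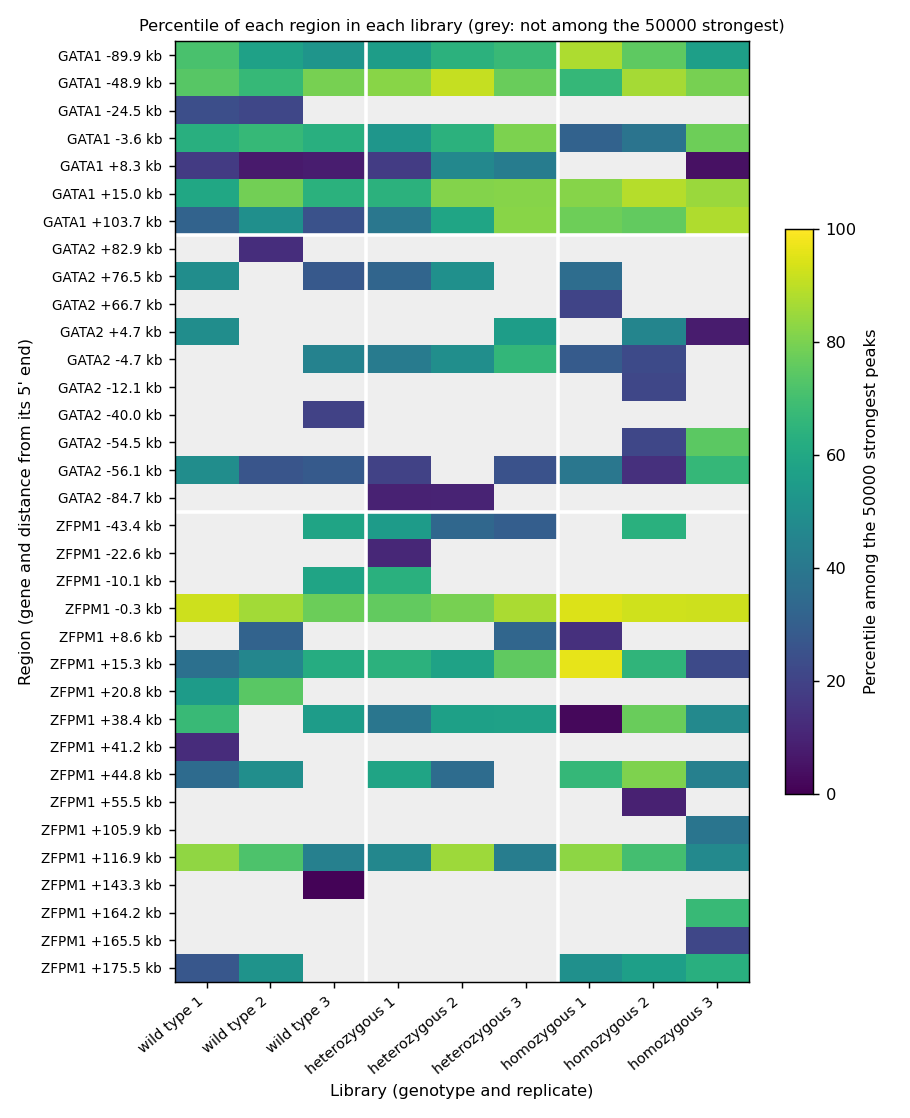
Percentile of each of the 34 regions (rows, by gene and distance from its 5′ end) in each library (columns, by genotype and replicate), from dark for low to yellow for high, with grey where the region is not among the 50000 strongest peaks. Of 10 GATA2 regions 0 are filled across all 9 columns, against 5 of 7 for GATA1 and 3 of 17 for ZFPM1.

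GATA2 (ENSG00000179348, chromosome 3, 128198270 to 128212044, minus strand) had the fewest strong peaks of the 3 genes. None of its 10 regions was among the strongest peaks of all 9 libraries, and 4 were found in 1 library each, where 18.2% of all regions were in 9 libraries and 30.3% in 1. At the distal start, the haematopoietic IS promoter at 128212044, no library had a peak within 500 bp even in its full list. The proximal start, the general IG promoter, lies under the +4.7 kb region (128206536 to 128208228). Peaks there were in all 9 full lists but among the strongest in 4 libraries. Percentiles were 49.0 in wild type replicate 1, 55.6 in heterozygous replicate 3, 45.6 in homozygous replicate 2 and 7.47 in homozygous replicate 3, and 0 in the other libraries. Each genotype thus had libraries with and without a strong promoter peak (exact permutation p = 1, adjusted p = 1). The best peak was a single window of 500 bp in wild type replicate 1, heterozygous replicates 1 and 3 and homozygous replicate 2. In the other libraries it joined 3 to 5 summits, with averaged values, and the part of joining in these ranks was not tested. In the full lists the promoter peak lay at percentiles from 36.0, in homozygous replicate 1, to 88.9, in heterozygous replicate 3.

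The intronic enhancer of GATA2, 9.5 kb downstream of the distal start, is needed for the emergence of blood stem cells and carries the composite of an E-box and AGATAA printed above (128202154 to 128202170). The window of 1 kb on each side held a peak in all 9 full lists and was among the strongest peaks of none. Full-list percentiles were 24.6, 8.33 and 58.2 in wild type, 59.1, 63.4 and 40.8 in heterozygous and 55.9, 55.9 and 67.4 in homozygous replicates 1 to 3. Wild type replicates 1 and 2 were below all other libraries, and these lists share intervals. Peaks spanned the composite in 6 libraries, 2 of each genotype, and their nearest summit lay 1 to 48 bp from it, with a median of 26.5 bp. In wild type replicate 3, heterozygous replicate 1 and homozygous replicate 1 the peak did not reach the composite, and the wild type and heterozygous lists among these share intervals. The composite was present in 500 bp of 1.98% of all regions and of none of the 34 members, and this enhancer is not one of them.

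Upstream of the distal start the regions differed in how many libraries held them. Between 2 and 4 kb upstream, where 2 further composites lie, 5 full lists had a peak, and 0 of 9 had a strong one. Full-list percentiles were 71.5, 56.2 and 71.4 in homozygous replicates 1 to 3 and 34.0 and 49.4 in wild type replicates 2 and 3. Wild type replicate 1 and all heterozygous libraries had none. In wild type replicate 2 and homozygous replicate 3 (34.0 and 71.4) this is the same joined peak that covers the −4.7 kb region, so 3 libraries had a peak of their own here. Peaks covered the nearer composite, printed above, in homozygous replicate 2 and the farther one in homozygous replicate 1, with summits 216 and 217 bp away. The neighbouring −4.7 kb region (128216365 to 128217157, in an intron of the antisense gene GATA2-AS1) had percentiles of 0, 0 and 44.2 in wild type, 41.7, 49.3 and 66.3 in heterozygous and 28.8, 22.3 and 0 in homozygous libraries. All heterozygous libraries were above all homozygous ones, and wild type replicate 3 stood apart from wild type replicates 1 and 2 (exact permutation p = 0.111, adjusted p = 0.646).

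Farther upstream, the −56.1 kb region (128267491 to 128268846, intergenic) had the highest number of libraries of any GATA2 region, 8 of 9. Its percentiles were 49.1, 26.2 and 28.4 in wild type, 19.9, 0 and 25.2 in heterozygous and 39.7, 13.9 and 66.7 in homozygous libraries. Wild type was above heterozygous in every library, with 26.2 and 25.2 the closest, and the homozygous libraries overlapped both (exact permutation p = 0.318, adjusted p = 0.799). The −54.5 kb region was among the strongest peaks of homozygous replicates 2 and 3, at 21.4 and 74.7, and of no other library, although 8 full lists held it. The lowest mean of the window was at +82.9 kb, with 12.9 in wild type replicate 2 and 0 elsewhere. The −84.7 kb region was in heterozygous replicates 1 and 2. In the full lists it was in 2 wild type and 3 heterozygous libraries, at percentiles of 43.4 to 82.4, and in 0 of 3 homozygous libraries. Outside the window, the far upstream enhancer about 110 kb from the distal start had 1 peak within 5 kb on each side in all 9 lists together, in homozygous replicate 2 at a full-list percentile of 70.7. The nearest strong regions outside the window were at +139.0 kb in 2 libraries and at −157.4 kb in 8.

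**Figure D3:**
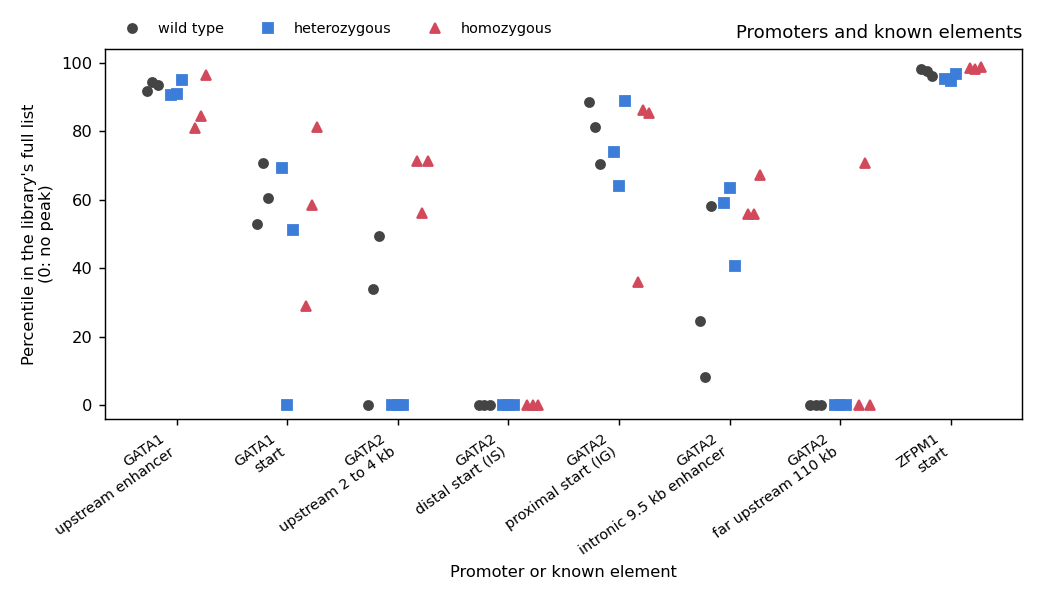
Percentile in the full list of the best peak at each promoter or known element (horizontal axis), 1 symbol per library with black circles for wild type, blue squares for heterozygous and red triangles for homozygous, and 0 where the library has no peak. The distal start of GATA2 is at 0 in all 9 libraries and the ZFPM1 start between 94.8 and 98.8.

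ZFPM1 (ENSG00000179588, chromosome 16, 88519688 to 88603439, plus strand) had the best ranked promoter of the 3 genes. The −0.3 kb region (88518878 to 88519953) covers the annotated start, has 76.4% G and C in its central 500 bp and had the highest mean percentile of the window. Its percentiles were 92.3, 86.2 and 77.6 in wild type, 75.9, 79.4 and 87.3 in heterozygous and 94.7, 92.8 and 92.3 in homozygous libraries. The homozygous libraries were above all others, with 92.344 against 92.274 in wild type replicate 1 the closest. The means were 85.4 ± 7.38, 80.9 ± 5.82 and 93.3 ± 1.22 (SD, n = 3 each; exact permutation p = 0.075, adjusted p = 0.537). The authors' −log10 p ran from 13.7 to 19.8, with the wild type and homozygous values interleaved. The printed bases hold none of the strings AGATAA, CCACACCC or TGTGGT. The whole −0.3 kb region holds 1 CCACACCC, at 88519008 to 88519015, outside the printed bases.

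Regions in the introns of ZFPM1 varied more between libraries. The +15.3 kb region was in all 9, at 37.1, 46.1 and 61.8 in wild type, 64.2, 57.7 and 75.5 in heterozygous and 96.1, 65.3 and 22.3 in homozygous libraries. The homozygous replicates spanned the whole range (exact permutation p = 0.636, adjusted p = 1). The +38.4 kb region (88557729 to 88558526), which holds the AGATAA printed above, was at 67.7, 0 and 55.3 in wild type, 39.1, 56.7 and 57.3 in heterozygous and 2.03, 77.1 and 47.3 in homozygous libraries. A summit lay within 28 to 176 bp of the string in all 9 full lists. The +44.8 kb region (88563939 to 88565011), with another AGATAA, was at 35.1, 49.6 and 0 in wild type, 58.6, 35.4 and 0 in heterozygous and 66.6, 80.8 and 43.6 in homozygous libraries. Homozygous replicates 1 and 2 were above all other libraries and replicate 3 was not. Homozygous minus wild type was 35.4 points (exact permutation p = 0.229, adjusted p = 0.681), 21.3 without wild type replicate 3 and 6.39 in the full lists. In the full lists summits lay 3 to 147 bp from its AGATAA.

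Other ZFPM1 regions were among the strongest peaks of some libraries and not of others. The +20.8 kb region was at 54.9 and 74.3 in wild type replicates 1 and 2, which share intervals, and at 0 in the 7 other libraries. The full lists held a peak there in 8 libraries, all but homozygous replicate 2. The +175.5 kb region (88694971 to 88695491) lies past the gene, in a coding exon of ZC3H18, a gene of RNA processing. It was at 50.1, 56.5 and 63.0 in homozygous libraries, at 0 in all 3 heterozygous libraries and at 27.1, 51.4 and 0 in wild type libraries. It was the 1 member present in all libraries of one genotype and 0 of another (exact permutation p = 0.0286, adjusted p = 0.374). Weaker peaks stood there in all heterozygous full lists, at ranks from 69837 to 103366, so the difference is one of rank. With shared lists as 1 source, homozygous minus the others was 46.7 points (exact permutation p = 0.0571). The lowest mean of the window was at +143.3 kb, in wild type replicate 3 alone at 0.798. The −43.4 kb region, in an intron of ZNF469, was in all 3 heterozygous libraries, at 29.96 to 54.7, in wild type replicate 3 and in homozygous replicate 2. The +116.9 kb region, at a start of ZC3H18, was in all 9 libraries, from 42.4 to 85.3. Just outside the window, regions at −152.8 kb and +197.7 kb were in all 9, from 40.9 to 77.6 and from 43.7 to 78.4.

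Over all 34 regions, presence seldom divided the genotypes. In all 3 homozygous and 0 of 3 wild type libraries there were 0 members (background 2.7% of regions in these libraries), and the reverse held for 0 (3.46%). Against heterozygous libraries, 1 member was in homozygous libraries alone (3.16%) and 0 in heterozygous libraries alone (3.41%). Between heterozygous and wild type libraries it was 0 in each direction (0.393% and 0.504%). Percentiles did not overlap for 3 members higher in homozygous than in wild type libraries, GATA1 +15.0 kb, GATA1 +103.7 kb and ZFPM1 −0.3 kb (background 7.38%), and for 1 lower, GATA1 +8.3 kb (9.32%). Against heterozygous libraries 3 were higher, GATA1 +15.0 kb, ZFPM1 −0.3 kb and ZFPM1 +175.5 kb (7.52%), and 2 lower, GATA1 +8.3 kb and GATA2 −4.7 kb (8.98%). Heterozygous libraries were above wild type at 1 member, GATA1 +8.3 kb (3.67%), and below at 1, GATA2 −56.1 kb (3.67%). These shares of 34 are near or below the background. After adjustment 0 of 105878 regions passed the threshold of 0.05 (0%), while 11258 (10.6%) had an unadjusted exact p under 0.05. Leaving out a library relaxes the criterion and raised the counts. The 4 for homozygous and wild type became 7 without homozygous replicate 1 and 8 without homozygous replicate 3. For homozygous and heterozygous the 5 became 8 without homozygous replicate 3. For heterozygous and wild type the 2 became 9 without wild type replicate 3, 5 without heterozygous replicate 1, and 4 when wild type replicate 2 or heterozygous replicate 3 was left out.

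**Figure D4:**
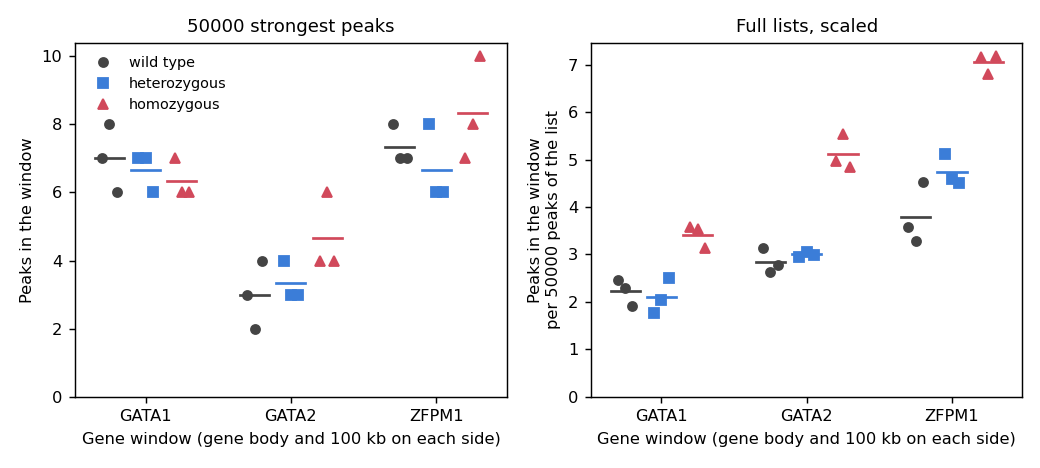
Peaks in the window of each gene, in the 50000 strongest peaks (left) and in the full lists per 50000 peaks of the list (right), with 1 symbol per library (black circles wild type, blue squares heterozygous, red triangles homozygous) and a line at the mean of 3. The homozygous libraries are above all others for the 3 genes on the right and overlap them on the left.

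The number of strong peaks around each gene was close between genotypes. GATA1 had 7, 8 and 6 in wild type, 7, 7 and 6 in heterozygous and 7, 6 and 6 in homozygous libraries (exact permutation p = 0.871). GATA2 had 3, 2 and 4, then 4, 3 and 3, then 4, 6 and 4 (exact permutation p = 0.257). ZFPM1 had 8, 7 and 7, then 8, 6 and 6, then 7, 8 and 10 (exact permutation p = 0.311). The adjusted p-values over 20090 protein-coding genes were 1, 0.536 and 0.591. Among all genes 17.4% had an unadjusted exact p under 0.05 and 0% passed after adjustment.

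The full lists gave another order. Per 50000 peaks of the list, GATA1 had 2.47, 2.30 and 1.91 in wild type, 1.77, 2.04 and 2.5 in heterozygous and 3.58, 3.53 and 3.13 in homozygous libraries. GATA2 had 3.14, 2.63 and 2.78, then 2.96, 3.06 and 3.0, then 4.96, 5.55 and 4.85. ZFPM1 had 3.59, 3.29 and 4.52, then 5.12, 4.58 and 4.5, then 7.17, 6.81 and 7.19. For each gene the homozygous libraries exceeded the 6 others (exact permutation p = 0.0286, 0.0143 and 0.00714; adjusted p = 0.0723, 0.0583 and 0.0525). None passed after adjustment, as for all genes (0%). This order is widespread: 38.1% of genes had every homozygous library above the others, and 49.7% had an exact p under 0.05. Homozygous minus wild type was 1.19, 2.27 and 3.26 peaks per 50000, beside a median of 1.21 over all genes. The share of the list on chromosome 16 was also higher in homozygous libraries, 2.05% to 2.21% against 1.62% to 1.83%. Per 1000 peaks on that chromosome ZFPM1 still had 6.41 to 6.99 in homozygous and 3.95 to 5.95 in the other libraries. Merged from the full lists, the windows held 128 regions, 22 of them in all 9 libraries and 61 in 1. These are 17.2% and 47.7%, beside 7.15% and 43.2% of all regions merged from the full lists. Of the 128, 60 were found in homozygous libraries alone, 53 of these in 1 library (background 23.1%), against 8 in wild type and 2 in heterozygous libraries alone. These are 46.9%, 6.25% and 1.56% of the 128, beside 26.4%, 17.1% and 9.90% of all 738271 regions merged from the full lists, and this difference was not tested. The longest list, homozygous replicate 3, held 97 peaks in the windows, and homozygous replicates 1 and 2 held 57 and 63, against 38 to 53 in the other libraries. Of the 128 regions, 1 was in all 3 homozygous and 0 of 3 wild type lists (GATA2 +47.5 kb), and 1 the reverse (ZFPM1 +77.9 kb). For homozygous against heterozygous lists it was 2 in each direction, and for heterozygous against wild type 0 and 1. Full-list percentiles of GATA2 +47.5 kb were 45.7, 48.8 and 11.6 in homozygous replicates 1 to 3, with no peak elsewhere. The share over all regions is not given for these counts, and they were not tested.

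The members were richer in G and C than the regions at large, with a median of 61.4% in the central 500 bp against 47.4%. In the central 500 bp, AGATAA on either strand was in 5 of 34 members (14.7%) and in 29.9% of all regions. These were GATA1 −3.6 kb, GATA1 +8.3 kb, GATA2 −40.0 kb, ZFPM1 +38.4 kb and ZFPM1 +44.8 kb. In the same 500 bp the AP-1 string TGANTCA was in 5 (14.7% against 22.9%), the RUNX string TGTGGT in 10 (29.4% against 32.3%) and the KLF string CCACACCC in 2 (5.88% against 5.34%). A CTCF string was in 1 member, ZFPM1 −10.1 kb (2.94% against 3.79%). Over their whole length, which differs between regions, 10 members held AGATAA, 8 the AP-1 string, 12 the RUNX string, 5 the KLF string and 1 the CTCF string. A match is a description of the letters and not of binding. In the 300 bases around RefSeq starts (GRCh38), 0 of 1 GATA1, 0 of 2 GATA2 and 0 of 1 ZFPM1 promoters held AGATAA, against 10.3% of 35116 promoters. For GATA1 this depends on the window and start used. Within 500 bp of its annotated GRCh37 start the string lay at 48644713 to 48644718 and at 48645373 to 48645378. Further copies lay in the first intron.

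Start sites of related and partner genes put these values in context. Of 5 other GATA and FOG genes, GATA3, GATA6 and ZFPM2 had a strong peak at a start. GATA3, a factor of T cells and other tissues, had mean percentiles of 95.5, 94.2 and 91.0 in wild type, heterozygous and homozygous libraries, above those of the GATA1 and GATA2 starts, and GATA4 and GATA5 had none. Of 12 genes of GATA1 complexes and partners 11 had a start site peak in at least 1 library, 6 of them in all 9, and KLF1 had none. LYL1 (8.75 against 38.4) and TCF12 (24.4 against 67.1) were higher in all homozygous than in all wild type libraries, and 0 were lower. TCF3 was higher in all homozygous than in all heterozygous libraries. All 10 NuRD genes had a start site peak in at least 1 library, 8 of them in all 9, while MTA1 had it in 2 and CHD4 in 5. MTA2 (85.3 against 93.9) and MBD3 (43.7 against 68.7) were higher in all homozygous than in all wild type libraries. So were GATAD2A (92.1 against 97.4) and GATAD2B (62.1 against 88.9), and all 4 were also above all heterozygous libraries. These are 4 of 10 genes, beside start-site backgrounds of 13.1% and 12.0% of single regions. A gene can have several starts (9 each for GATAD2A and GATAD2B), so the 2 kinds of share differ in unit. MTA2, HDAC1 and MBD3 were lower in all heterozygous than in all wild type libraries (background 4.02%). Of 6 erythroid targets of GATA1, 4 had a start site peak (EPOR, KEL, TFRC and UROS), and ALAS2 and SLC4A1 had none. Of the 4, 0 were higher or lower in all homozygous than in all wild type libraries. TFRC, the transferrin receptor, was lower in all homozygous than in all heterozygous libraries. The median difference, homozygous minus wild type, was −4.51 points for the GATA and FOG genes, 10.6 for the partners, 1.94 for NuRD and 8.05 for the targets, over genes with a peak. Over the 14188 regions at protein-coding start sites that give these backgrounds, 13.1% were higher and 8.03% lower in all homozygous than in all wild type libraries, with a median difference of 1.94 points.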

How the data were processed

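ATAC-seq peak lists of 9 K562 libraries, 3 per genotype, were used as deposited. Per the submitters' processing notes, reads were handled with cutadapt, Bowtie2 2.2.9, Picard and MACS2 2.1.0 on hg19 (GRCh37). Whether reads were shifted for Tn5 is not given in the sources used here. The lists have no header. Each peak carries the authors' fold enrichment (a ratio), −log10 p, −log10 q and a display score, which was not used. Values of peaks were used only to rank and describe peaks within a list. Single peaks are windows of 500 bp and overlapping windows were joined by the authors with averaged values. The deposited summit offset does not count from the start of the window, so first and last summits were placed 250 bp inside each end, and inner summits of joined peaks were not placed.

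The autosomes and chromosome X were kept, and the 155 to 289 peaks per list elsewhere were left out. The 50000 with the highest −log10 p per library were merged across libraries on an overlap of at least 1 bp. Genes and start sites came from GENCODE release 44 on GRCh37 (20090 protein-coding genes). Start sites were searched within 500 bp. Known enhancers were placed by their distance from annotated starts, from general knowledge. The 3 genotypes were compared by an exact permutation test of the between-group sum of squares over 280 assignments of libraries, adjusted by Benjamini-Hochberg over all regions or genes. Pairs of genotypes (3 against 3) cannot give a two-sided exact p under 0.1, so their calls are counts of regions whose libraries do not overlap, beside the background. The smallest exact p possible, 0.00357, passes adjustment only where very many regions or genes share it. Over all regions the lowest adjusted p was 0.374, so a count of 0 passing says little about any 1 region. The test was also run on simulated counts, and no result here rests on that run.

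Regions named are those over starts of the genes, at known distal elements, present in 3 of 3 against 0 of 3 libraries, or with the highest or lowest mean of a window; others were named after their values were seen. Of the lists of erythroid genes, 2 genes are not reported here. The members and lists were chosen with earlier results of these data known. Replicate numbers did not pair the libraries (correlations of deviations between −0.305 and 0.178). Work was done in Python 3.11.15 with numpy 2.4.6, pandas 2.3.3 and matplotlib 3.10.9.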

Additional observations from a re-analysis of the deposited data

Results flagged for a closer look

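The GATA1 +8.3 kb region lay on opposite sides of wild type in the 2 mutant lines: among the 50000 strongest peaks its percentile was above all wild type libraries in all 3 heterozygous libraries and below all of them in all 3 homozygous libraries. The mean was 10.8 for wild type, 35.5 for heterozygous and 1.45 for homozygous cells, and homozygous minus heterozygous was −34.0 points. By full-list percentile homozygous replicate 3 (85.0) lay above every wild type library (81.5 to 84.7) and heterozygous replicate 1 (83.8) among them, with an exact permutation p of 0.154. That measure also depends on the length of each list. By rank homozygous replicate 3 (47820) was behind every wild type library (41328 to 46403). Homozygous minus wild type was −9.36 points, −6.10 without wild type replicate 1, and 0 among the 20000 strongest peaks or with −log10 q of at least 5. The difference between the 2 lines was not tested on its own, and 3 libraries against 3 cannot give an exact p under 0.1. Wild type replicate 3 and heterozygous replicate 1, at 7.91 and 17.7, come from lists that share intervals.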

How the results depend on the processing

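In every alternative run, 0 of the tested values (peak counts of the 3 windows and percentiles of the 10 named regions) had an adjusted p under 0.05, and the lowest was 0.0525, for ZFPM1 in the full lists. Depth is unknown, joined peaks carry averaged values, and 3 libraries per genotype, some sharing intervals, limit every comparison. The cause of the changes below was not tested.

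For the GATA1 window, homozygous minus wild type peaks was −0.667, but 1 among the 20000 strongest peaks, 0.667 among the 100000 strongest and 1.19 in the full lists. For GATA2 it was 1.67, 4.67 among the 100000 strongest and −1.33 among peaks with −log10 q of at least 5. For ZFPM1 it was 1, and from 0 (windows of 10 kb) to 3.33 (100000 strongest) over the alternatives. Without 1 library the GATA1 value ranged from −1.17 (wild type replicate 3) to −0.167 (wild type replicate 2), GATA2 from 1 (homozygous replicate 2) to 2.17 (wild type replicate 3) and ZFPM1 from 0.167 (homozygous replicate 3) to 1.67 (homozygous replicate 1). Without wild type replicate 3, ZFPM1 −0.3 kb went from 7.92 to 4.04 points and ZFPM1 +175.5 kb from 30.4 to 17.3.

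Regions in all of one genotype and none of the other were 0 for homozygous and wild type, and 1 among the 20000 strongest or ranked by fold enrichment. For homozygous and heterozygous the 1 became 0 with the 20000 or 100000 strongest or windows of 50 or 10 kb, and 2 in the full lists or by fold enrichment. The full-list setting looked up full-list peaks in the same 34 regions, not in the 128 regions merged from the full lists. For heterozygous and wild type the 0 became 1 with the −log10 q minimum. Regions that do not overlap were 4 for homozygous and wild type, 1 in the full lists and 2 by fold enrichment. For homozygous and heterozygous the 5 became 2 with the 20000 strongest, 3 by fold enrichment and 3 with the −log10 q minimum. For heterozygous and wild type the 2 became 0 with the 20000 strongest and 1 by fold enrichment, with the −log10 q minimum and in windows of 50 or 10 kb. Without 1 library at a time, regions in all of one and none of the other ranged from 0 to 2 (homozygous and wild type), 1 to 2 (homozygous and heterozygous) and 0 to 5 (heterozygous and wild type). The 2 and the 5 of the pairs with wild type came without wild type replicate 3, and the 2 of the other pair without heterozygous replicate 3 or any 1 homozygous library. Regions that do not overlap ranged from 4 to 8, 5 to 8 and 2 to 9.

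Homozygous minus wild type percentiles changed sign at 4 regions. GATA1 −3.6 kb was −15.1 and became 4.05 with the 20000 strongest. GATA2 +4.7 kb was 1.36 and became −2.33 with the 100000 strongest, −10.9 in the full lists, −2.19 by fold enrichment and −16.3 with the −log10 q minimum. GATA2 −4.7 kb was 2.33 and became −14.7 with the −log10 q minimum. GATA2 −56.1 kb was 5.51 and became −2.52 in the full lists, −3.43 by fold enrichment and −12.3 with the −log10 q minimum. With shared lists as 1 source the contrast is another, homozygous minus wild type and heterozygous sources together, and it was −2.33 at GATA2 +4.7 kb and −22.6 at GATA2 −4.7 kb. Without 1 library the 4 differences ranged from −29.4 to −6.24 (GATA1 −3.6 kb), −12.6 to 17.7 (GATA2 +4.7 kb), −5.04 to 17.1 (GATA2 −4.7 kb) and −7.80 to 18.6 (GATA2 −56.1 kb). The sign turned at GATA2 +4.7 kb without wild type replicate 2 or 3 or homozygous replicate 2, at GATA2 −4.7 kb without wild type replicate 1 or 2 or homozygous replicate 1 or 2, and at GATA2 −56.1 kb without homozygous replicate 3.

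With the replicate number as a block, the window differences stayed −0.667, 1.67 and 1 peaks (adjusted p from exact permutation within numbers = 1, 0.720 and 0.720), and the block changed no call. Assigning peaks by their first summit, or counting a region as present only where at least 50% of the peak or of the region is covered, gave the same values.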
